A study of Mus musculus with 6 samples.

Results

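The 44 collagen chain genes of the mouse were followed in liver RNA across 3 groups of mice that differed in their means to make ascorbic acid (AA, vitamin C) and in its supply. Members were the genes whose probe sets carried a single gene symbol of the collagen form, as in Col1a1 or Col18a1. They made up 44 of 19550 genes with a value, and each gene stood for 1 probe set, the one of highest mean. Every collagen gene of the RefSeq table was on the array with a probe set of its own. The study used Affymetrix mouse Gene 1.0 ST arrays, 1 per sample and 2 per group. It asked what the loss of SMP30/GNL and of AA does to transcripts of the liver.

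SMP30/GNL (senescence marker protein 30, a gluconolactonase) is an enzyme that mice need for AA synthesis, and its gene is Rgn. All mice were males of the C57BL/6NCrSlc background and ate the same AA-deficient chow, CL-2. AA-deficient knockouts (SMP30/GNL KO) received no AA. AA-supplemented knockouts received it in drinking water to which EDTA had been added as a stabiliser, at a level meant to keep tissue AA normal. Wild-type mice drank water without the vitamin and could make their own. The sources used here do not give the age, the part of Rgn deleted or whether the other groups' water held EDTA. The labels do not tie the arrays of a group to separate mice. P-values therefore reflect the spread between samples alone, and that spread could be technical.

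Collagens are matrix proteins whose chains wind around each other into a triple helix. Before they fold, prolines and lysines of the chains are hydroxylated in the endoplasmic reticulum by enzymes that use iron and ascorbate, and the helix of poorly hydroxylated collagen is unstable, as in scurvy. In the liver the fibrillar chains come mainly from stellate cells and portal fibroblasts. Collagen IV and collagen XVIII belong to basement membranes, and hepatocytes also transcribe Col18a1. The array measures RNA, so neither hydroxylation nor deposited collagen was measured.

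The promoters of the only gene that passed a test, Col18a1, and of the chains whose start regions overlap, Col4a1 and Col4a2, are shown for orientation. Each window runs from 250 bases before to 50 bases after a RefSeq start (GRCm38.p6) and is written 5′ to 3′ on the gene's strand. Capitals mark GGGCGG, the GC box core, and CCAAT, the CCAAT box, either as written or as the reverse complement. Both Col18a1 windows lie on the minus strand of chromosome 10, the distal one at chr10:77166481-77166780 and the other at chr10:77113656-77113955. The Col4a1 window is at chr8:11312777-11313076 on the minus strand and the Col4a2 window at chr8:11312555-11312854 on the plus strand.
Col18a1 distal start: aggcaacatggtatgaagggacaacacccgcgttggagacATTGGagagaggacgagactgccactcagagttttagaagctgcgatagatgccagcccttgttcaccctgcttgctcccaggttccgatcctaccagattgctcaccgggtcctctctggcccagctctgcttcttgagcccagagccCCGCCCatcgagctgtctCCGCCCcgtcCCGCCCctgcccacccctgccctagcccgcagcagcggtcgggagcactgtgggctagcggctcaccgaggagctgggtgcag
Col18a1 second start: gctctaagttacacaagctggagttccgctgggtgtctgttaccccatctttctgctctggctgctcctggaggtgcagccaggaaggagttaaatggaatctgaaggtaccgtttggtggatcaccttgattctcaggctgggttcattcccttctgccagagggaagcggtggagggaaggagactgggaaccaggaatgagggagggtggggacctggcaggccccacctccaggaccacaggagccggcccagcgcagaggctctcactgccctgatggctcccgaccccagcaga
Col4a1: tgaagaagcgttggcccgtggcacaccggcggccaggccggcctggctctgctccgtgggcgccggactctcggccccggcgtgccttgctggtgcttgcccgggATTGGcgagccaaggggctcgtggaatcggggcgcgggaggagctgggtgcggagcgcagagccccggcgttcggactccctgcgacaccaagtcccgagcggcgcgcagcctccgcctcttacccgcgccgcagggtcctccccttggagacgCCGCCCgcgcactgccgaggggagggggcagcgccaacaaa
Col4a2: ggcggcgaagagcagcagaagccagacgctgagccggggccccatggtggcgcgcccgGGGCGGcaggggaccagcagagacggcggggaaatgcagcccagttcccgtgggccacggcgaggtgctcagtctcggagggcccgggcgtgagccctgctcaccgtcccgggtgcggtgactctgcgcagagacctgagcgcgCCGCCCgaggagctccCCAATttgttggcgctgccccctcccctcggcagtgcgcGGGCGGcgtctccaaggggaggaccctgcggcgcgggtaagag

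The distal Col18a1 window held 3 GGGCGG and 1 CCAAT match, and the other window held 0 of either. The Col4a1 and Col4a2 windows shared 78 bases and were the only windows of different collagen genes to overlap. The 2 windows of Col6a2 shared 74 bases. The head-to-head pair Col4a5 and Col4a6 had windows 842 bases apart. Windows were found for 35 of the 44 genes, 38 in all. On both strands, GGGCGG occurred in 60.5% of the collagen windows (23 of 38) beside 35.7% of all 32851 windows. CCAAT occurred in 34.2% beside 37.4%, TATAAA in 13.2% beside 13.6%, and CACGTG in 0 of 38 beside 7.15%. A match is a description of these letters, not a factor's site. Col12a1, Col14a1, Col1a1, Col22a1, Col26a1, Col2a1, Col4a3, Col5a2 and Col9a3 had no entry.

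Values are the deposited log units, read here as log10, and a fold is 10 to the power of a difference on that reading. Rgn, the targeted gene, was at 0.229 and 0.297 in AA-deficient knockouts, 0.339 and 0.141 in AA-supplemented knockouts and 2.07 and 1.996 in wild type, so the knockout arrays followed their labels. Arrays of a group correlated at 0.971 to 0.981 across all genes, and arrays of different groups at 0.959 to 0.979. Hepatocyte markers, a check of the labelled tissue, averaged between 1.94 and 2.09 on every array.

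The low end of the arrays, where most collagen genes lie, was not level. Array 2 of the AA-supplemented knockouts stood above array 1 in 44 of 44 collagen genes, by a median of 0.106, and in 74.1% of all genes below the overall median. It held the highest of the 6 values for 30 of 44 collagen genes, beside 32.9% of all genes below the median. In AA-deficient knockouts array 2 was the higher in 9 of 44, beside 36.8% of all genes below the overall median. In wild type it was the higher in 11 of 44, beside 35.5%. The collagen median was 0.321 and 0.268 in AA-deficient knockouts, 0.244 and 0.373 in AA-supplemented knockouts and 0.330 and 0.292 in wild type. The 25th percentile of all genes on the same arrays was 0.201, 0.167, 0.158, 0.222, 0.202 and 0.174. After quantile or cyclic loess normalisation array 2 was still the higher in 38 of 44, and after centring on the median in 43. The part of this offset in the results below was not tested.

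**Figure D1:**
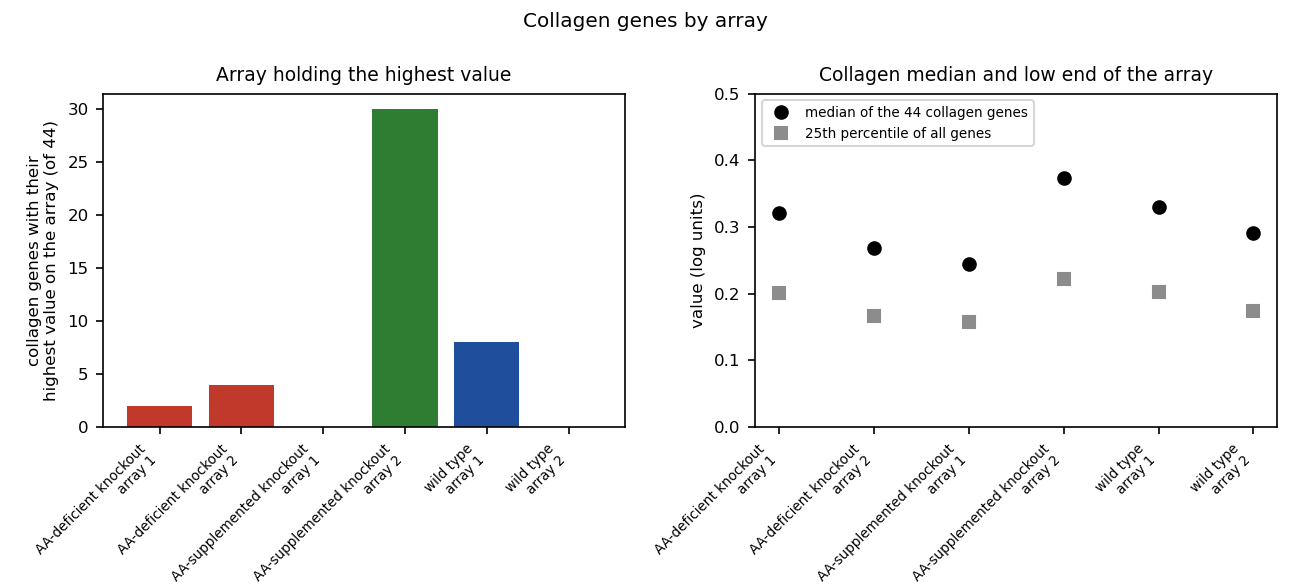
The left panel counts, for each of the 6 arrays, the collagen genes (of 44) that had their highest value there, and the right panel plots the median of the 44 genes (black points) and the 25th percentile of all genes (grey squares) in log units. AA-supplemented array 2 held 30 of the 44 highest values, and its collagen median of 0.373 was above the 0.244 of array 1 of its group.

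A gene was tested where its mean over the 6 arrays was at or above 0.185, the 25th percentile. Of the 44 collagen genes, 38 passed this filter, and 36 of those had a mean under 0.6. No background value was used here, so a value that low cannot be separated from background. Col12a1, Col25a1, Col4a4, Col4a6, Col5a2 and Col8a1 were not tested, and their array values ran from 0.00078 to 0.251. Col6a3 lay just inside the filter with a mean of 0.217 and Col4a6 just outside with 0.171. For 39 of the 44 genes the largest gap between arrays of a group exceeded the largest difference between group means. The 5 exceptions were Col14a1, Col18a1, Col3a1, Col4a6 and Col6a1. No such count over all genes is given here, so these counts do not set collagen genes apart from other genes.

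**Figure D2:**
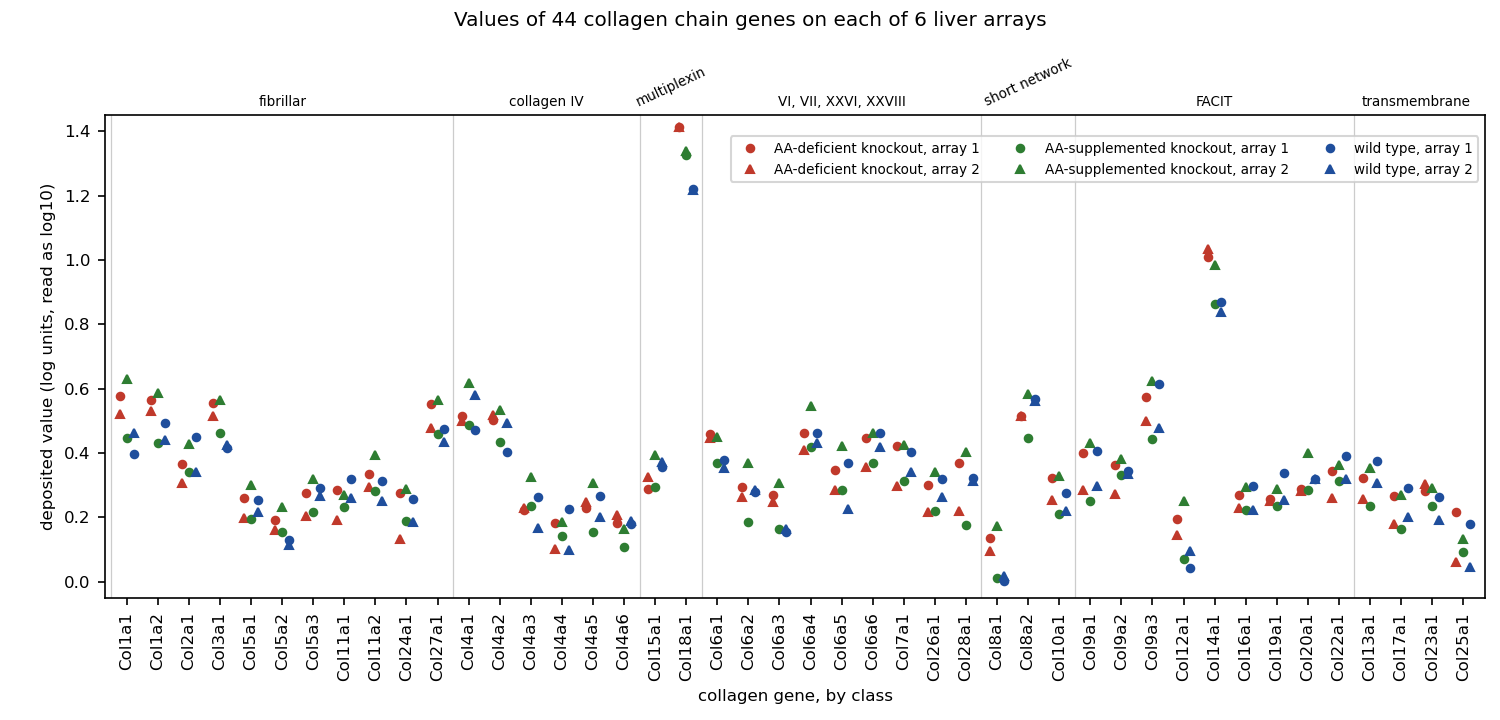
The value of each of 44 collagen genes (x axis, by class) on each array in deposited log units, with colour for the group and circles and triangles for arrays 1 and 2. Col18a1 and Col14a1 are the genes with means of 1.32 and 0.933, and the means of the others lie under 0.6, where the triangles of the AA-supplemented knockouts are mostly on top.

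Between the knockout groups, which share the genotype and differ in AA and possibly EDTA, no collagen gene passed the test. The members nearest to it were Col18a1, the precursor of endostatin, at 0.0796 above the AA-supplemented level (SE 0.039, 1.20-fold, adjusted p = 0.571 in limma), and Col14a1, a chain that lies on the surface of fibrils, at 0.0978 (SE 0.050, 1.25-fold, adjusted p = 0.593). Col1a1, the main fibrillar chain of scar, differed by 0.0112 (SE 0.064), by 0.103 without AA-supplemented array 2 and by -0.0806 without array 1. In limma 0 of 38 collagen genes passed at an adjusted p under 0.05, beside 0.205% of all 14662 genes tested. At an unadjusted p under 0.05 there were 0 of 38, beside 9.92%. Differences were above 0 for 17, beside 50% of all genes, and below 0 for 21, with a median of -0.00628 beside 3.14e-05 over all genes. The AA-deficient arrays lay wholly above the AA-supplemented ones for 2 collagen genes tested, Col14a1 and Col18a1, beside 19.8% of all genes, and wholly below for 1, Col4a3, beside 17.5%. The 95% intervals of the 38 differences reached from -0.188 to 0.213, so folds up to 1.54 downward and 1.63 upward are inside them. Without AA-supplemented array 2 the median was 0.0496, and without array 1 it was -0.0662, in both cases with 0 genes past the threshold.

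Against wild type, AA-deficient knockouts lack both the gene and AA, and here 1 collagen gene rose. Col18a1 was 0.195 higher (SE 0.039, 1.57-fold, adjusted p = 0.0368 in limma). Col14a1 was 0.167 higher (SE 0.050, 1.47-fold) and did not pass (adjusted p = 0.107), nor did Col3a1, the chain of reticular fibres, at 0.115 (SE 0.047, 1.30-fold, adjusted p = 0.221). In limma 1 of 38 passed (2.63%), beside 4.63% of all genes in either direction and 3.08% higher. At an unadjusted p under 0.05 there were 3 of 38, beside 20.4%. Differences were above 0 for 15, beside 48.5% of all genes, and below 0 for 23, with a median of -0.0101 beside -0.00335. That median took both signs when 1 array was left out, at -0.0374 without AA-deficient array 1, 0.0242 without array 2, 0.0192 without wild-type array 1 and -0.0315 without array 2. The groups did not overlap with the AA-deficient arrays higher in 10 of the 38, beside 27.6% of all genes, and lower in 3, beside 26.9%. Interval bounds ran from -0.203 to 0.284. The difference of Col18a1 was 0.194 to 0.196 without any 1 of these 4 arrays but did not pass, with adjusted p = 0.172 without AA-deficient array 1, 0.210 without array 2, 0.213 without wild-type array 1 and 0.180 without array 2. In such a fit 1 group has a single array, which is assumed to vary like the other groups. It also did not pass without the filter on low genes (adjusted p = 0.0823) or after removal of the trend on gene span (difference 0.159, adjusted p = 0.0702).

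AA-supplemented knockouts and wild type both had AA but differ in genotype, in its source (drinking water or own synthesis) and possibly in EDTA. No collagen gene passed between them. Col18a1 was again the member of smallest p, 0.115 higher (SE 0.039, 1.30-fold, adjusted p = 0.374 in limma). Col3a1 was 0.0945 higher (SE 0.047, adjusted p = 0.543) and Col1a1 0.109 higher (SE 0.064, adjusted p = 0.599). In limma 0 of 38 passed, beside 0.00682% of all genes, and 1 of 38 had an unadjusted p under 0.05, beside 10.6%. Differences were above 0 for 20, beside 49.1% of all genes, and below 0 for 18, with a median of 0.0153 beside -0.00167. The AA-supplemented arrays lay wholly above wild type for 2 collagen genes, Col18a1 and Col3a1, beside 19.8%, and wholly below for 0, beside 18.8%. Interval bounds ran from -0.208 to 0.257. Without AA-supplemented array 2 the median was -0.0379, and without array 1 it was 0.0784. With the 3 groups taken at once (moderated F test in limma) 0 of 38 collagen genes passed, beside 1.36% of all genes, and the smallest adjusted p was 0.0903, of Col18a1. The comparisons share arrays, so their values are not independent of each other.

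**Figure D3:**
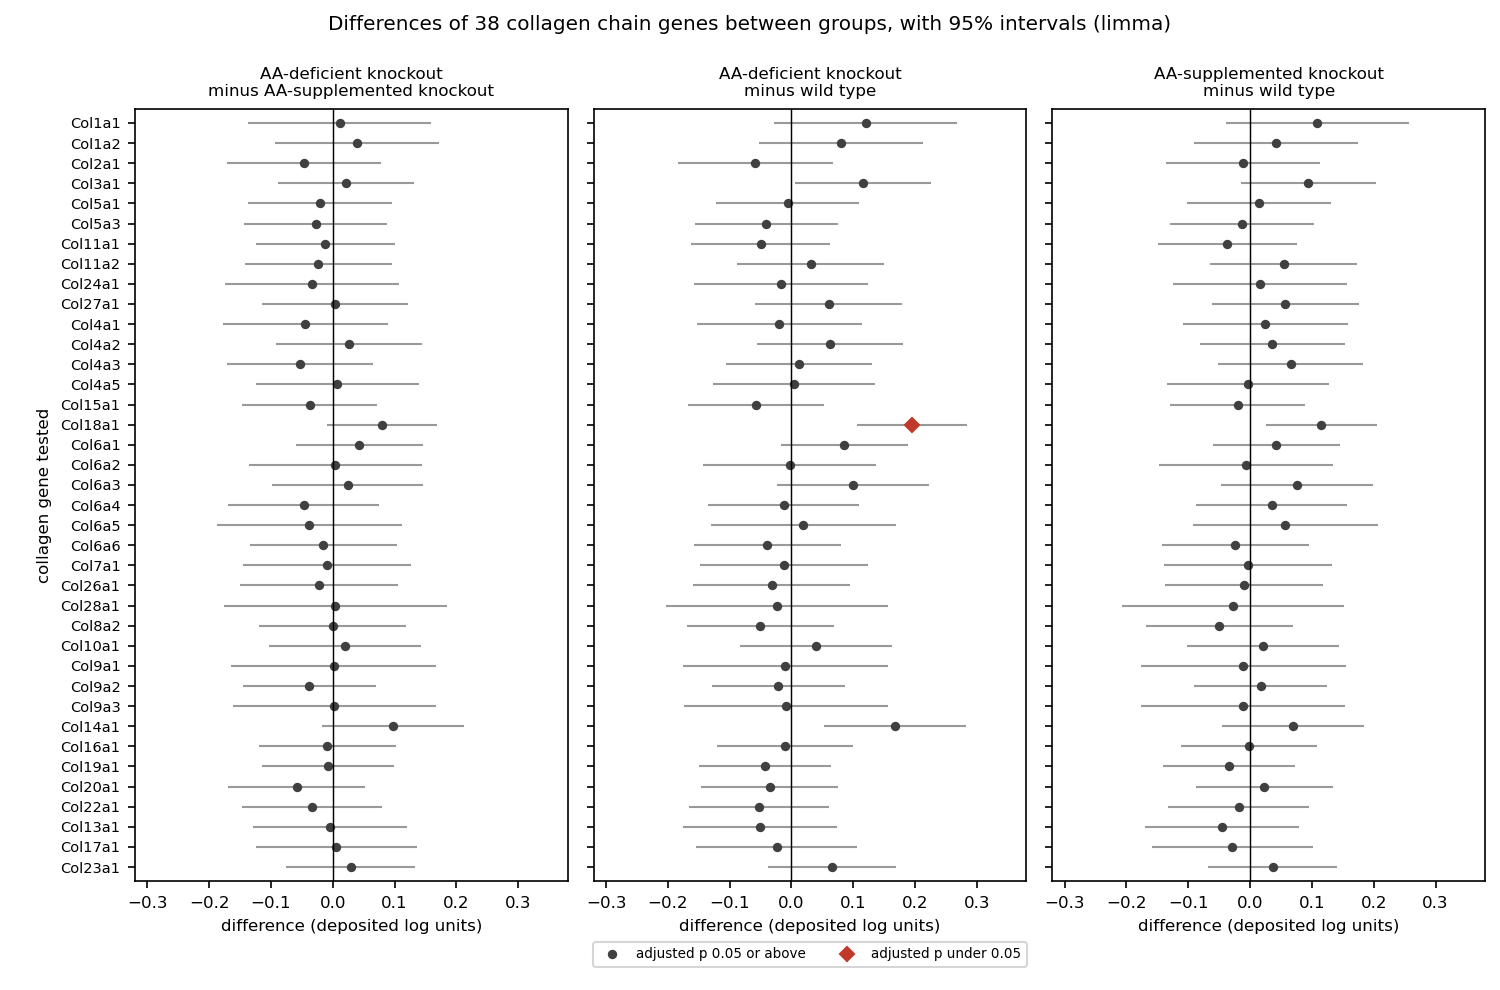
Differences between groups in deposited log units (x axis) for the 38 collagen genes tested (rows, by class), with 95% intervals from limma as bars, in 3 panels for the 3 comparisons. The single red diamond, Col18a1 at 0.195 in AA-deficient knockouts minus wild type, passed the threshold, and grey intervals of most other genes cross 0.

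Among multiplexins, basement membrane collagens with an interrupted helix, Col18a1 was at 1.41 and 1.41 in AA-deficient knockouts, 1.33 and 1.34 in AA-supplemented knockouts and 1.22 and 1.22 in wild type. The 3 groups did not overlap, and the largest gap between arrays of a group was 0.0112. Its span in the genome, introns included, is 114 kb. A share of all genes with 3 separate groups was not computed. Between AA-deficient knockouts and wild type, 27.6% of all genes did not overlap with AA-deficient arrays higher and 26.9% with them lower. Col15a1, the other multiplexin, differed from wild type by -0.0576 in AA-deficient knockouts (SE 0.047, adjusted p = 0.562 in limma), and the AA-deficient arrays, at 0.287 and 0.326, lay below those of wild type at 0.357 and 0.371. The tested pair thus differed in sign.

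FACIT collagens attach to the surface of fibrils and link them to other matrix. Col14a1 was at 1.01 and 1.03 in AA-deficient knockouts, 0.864 and 0.983 in AA-supplemented knockouts and 0.870 and 0.839 in wild type. The AA-deficient arrays lay above the other 4, and the AA-supplemented arrays were apart by 0.119. Without AA-supplemented array 2 it differed between the knockouts by 0.157, and without array 1 by 0.0384. Against wild type it passed in limma with only the 4 arrays compared (adjusted p = 0.0491). Of the 8 FACIT genes tested, Col14a1 was the only one above 0 in AA-deficient knockouts against wild type, and 7 were below, with a class median of -0.0159 and 0 past the threshold. Col9a3, a cartilage chain, was at 0.575 and 0.498, 0.444 and 0.624, and 0.613 and 0.478 in the same order of groups, all overlapping. Col20a1 was at 0.288 and 0.281 in AA-deficient knockouts, 0.286 and 0.399 in AA-supplemented knockouts and 0.319 and 0.320 in wild type, a difference of -0.0582 between the knockouts (SE 0.048). The differences from wild type were -0.00974 for Col9a1, -0.0212 for Col9a2, -0.0105 for Col16a1, -0.0427 for Col19a1 and -0.0524 for Col22a1.

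The fibrillar class holds the chains of the tough fibres of scar, tendon and bone. Col1a1 and Col1a2 encode the chains of collagen I. Col1a1 was at 0.576 and 0.521 in AA-deficient knockouts, 0.446 and 0.629 in AA-supplemented knockouts and 0.395 and 0.462 in wild type. Both AA-deficient arrays were above wild type, and the AA-supplemented arrays spanned the AA-deficient values. It differed from wild type by 0.120 in AA-deficient knockouts (SE 0.064, 1.32-fold, adjusted p = 0.346 in limma). Col1a2 was at 0.564 and 0.530, 0.430 and 0.586, and 0.492 and 0.441 in the same order. The AA-deficient arrays were again above wild type, by 0.0805 (SE 0.057, adjusted p = 0.492), and again inside the AA-supplemented range.

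Col3a1 was at 0.555 and 0.515 in AA-deficient knockouts, 0.463 and 0.565 in AA-supplemented knockouts and 0.416 and 0.423 in wild type. All 4 knockout arrays were above both wild-type arrays. Col27a1, a cartilage-type fibrillar chain, was at 0.552 and 0.477, 0.459 and 0.563, and 0.475 and 0.433, and its AA-deficient arrays lay just above wild type. The 4 fibrillar genes whose AA-deficient arrays lay wholly above wild type were Col1a1, Col1a2, Col3a1 and Col27a1, of 10 tested, beside 27.6% of all genes, with 0 past the threshold. In all, 5 of the 10 were above 0 and 5 below, with a class median of 0.0124 against wild type and -0.0165 between the knockouts. Differences from wild type were -0.0584 for Col2a1, -0.00615 for Col5a1, -0.0407 for Col5a3, -0.0494 for Col11a1, 0.0309 for Col11a2 and -0.0169 for Col24a1. Col5a2 was not tested.

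Collagen IV forms the sheet of basement membranes, and Col4a1 and Col4a2 encode its common chains. Col4a1 was at 0.515 and 0.498 in AA-deficient knockouts, 0.485 and 0.616 in AA-supplemented knockouts and 0.471 and 0.581 in wild type. Col4a2 was at 0.503 and 0.517, 0.435 and 0.532, and 0.403 and 0.492 in the same order. In these genes of overlapping start windows, array 2 was the higher in AA-supplemented knockouts, as in 44 of 44 collagen genes. It was also the higher in wild type, as in 11 of 44 and in 35.5% of all genes below the overall median. They differed from wild type in AA-deficient knockouts by -0.0195 (SE 0.058) and 0.0624 (SE 0.051), and neither passed. Col4a3 was at 0.224 and 0.228, 0.234 and 0.324, and 0.262 and 0.165, and differed by 0.0127, while Col4a5 differed by 0.00444. Of the 4 chains tested 0 passed, with a class median of 0.00856 against wild type.

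Collagen VI makes beaded filaments around cells. Col6a1 was at 0.459 and 0.445 in AA-deficient knockouts, 0.367 and 0.450 in AA-supplemented knockouts and 0.378 and 0.354 in wild type, and its AA-deficient arrays lay above wild type by 0.0856 (SE 0.044, 1.22-fold, adjusted p = 0.332 in limma). Col6a3 was at 0.270 and 0.247, 0.163 and 0.306, and 0.154 and 0.164, 0.0995 above wild type in AA-deficient knockouts (SE 0.053, adjusted p = 0.347). Col6a2, the third common chain, differed by -0.0027 (SE 0.061). Its arrays in AA-supplemented knockouts were 0.183 apart. Col6a4 was at 0.460 and 0.408, 0.417 and 0.546, and 0.462 and 0.431, and Col6a6 at 0.446 and 0.357, 0.369 and 0.463, and 0.462 and 0.418. These overlapped in every comparison. With Col6a5 (0.0192 from wild type), Col7a1, the anchoring fibril chain (-0.0122), Col26a1 (-0.0322) and Col28a1 (-0.0232), the 9 genes had 3 above 0 and 6 below, with a median of -0.0122 and 0 past the threshold.

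Of the short network chains, Col8a2 was at 0.513 and 0.515 in AA-deficient knockouts, 0.446 and 0.583 in AA-supplemented knockouts and 0.566 and 0.562 in wild type. Its AA-deficient arrays lay below wild type by 0.0501 (SE 0.052, adjusted p = 0.656 in limma), and the AA-supplemented arrays spanned both. Col10a1, the chain of growth plate cartilage, differed by 0.0399. Among transmembrane collagens, anchored in the cell surface, Col13a1 differed from wild type by -0.0507, Col17a1 by -0.0235 and Col23a1 by 0.0652 in AA-deficient knockouts, with 0 of 3 past the threshold.

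**Figure D4:**
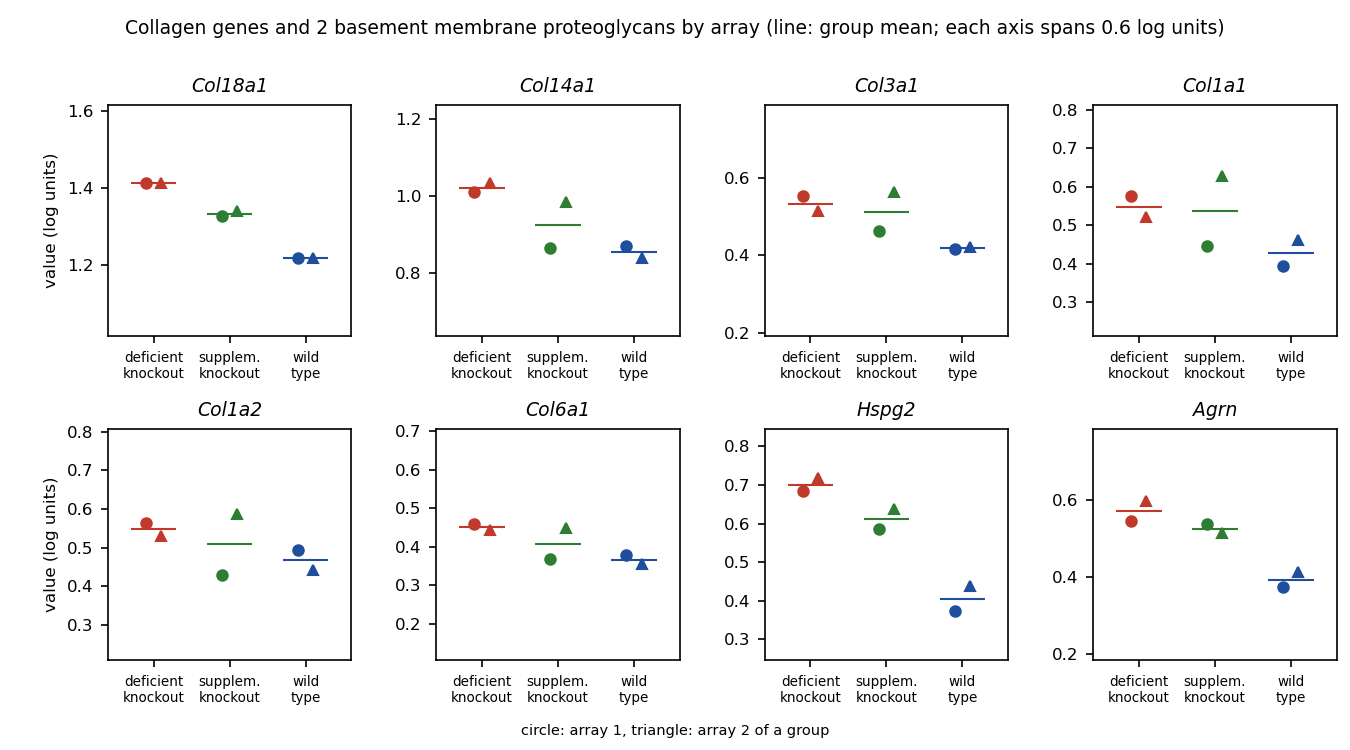
Values by array in deposited log units for 6 collagen genes and for Hspg2 and Agrn, with group means as lines, circles for array 1 and triangles for array 2; every axis spans 0.6 log units. In Col18a1 the 3 groups are apart at 1.41, 1.33 and 1.22, whereas in Col1a1 and Col1a2 the AA-supplemented arrays span the AA-deficient values.

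Several collagen genes lie next to each other in the genome. These were Col9a1 with Col19a1, Col3a1 with Col5a2, Col4a4 with Col4a3, Col6a2 with Col6a1, Col4a1 with Col4a2, Col4a6 with Col4a5, and the row Col6a6, Col6a5 and Col6a4. Collagen genes are also long. Of the 38 tested, 22 (57.9%) were among the longest 20% of genes, which span 63.3 kb or more. In AA-deficient knockouts against wild type 8.07% of those longest genes were called higher (236 of 2924), and their median difference was 0.0388. The collagen genes among them had a median of -0.0112, and the shorter collagen genes of -0.00983. The part of span in the Col18a1 difference was not tested beyond the value without its trend.

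The list for modification, folding and export of collagen chains, not all of them enzymes, had 17 genes tested. In AA-deficient knockouts against wild type 1 rose and 1 fell (11.8%, beside 4.63% of all genes). Differences were above 0 for 6, beside 48.5% of all genes, and below 0 for 11, with a median of -0.0200. P3h1, a prolyl 3-hydroxylase that needs AA, fell: it was at 0.314 and 0.345 in AA-deficient knockouts, 0.479 and 0.427 in AA-supplemented knockouts and 0.509 and 0.563 in wild type (difference -0.207, SE 0.044, 1.61-fold lower, adjusted p = 0.0429 in limma). All of its values lay under 0.6, a level that cannot be separated from background here. Mia3, which loads bulky procollagen into transport vesicles, rose: it was at 1.40 and 1.39, 1.32 and 1.30, and 1.18 and 1.22 (difference 0.198, SE 0.041, 1.58-fold, adjusted p = 0.0407). In both genes the 3 groups did not overlap, with the AA-supplemented knockouts between the others. The share of all genes with 3 separate groups was not computed. Between AA-deficient knockouts and wild type, 27.6% of all genes did not overlap with AA-deficient arrays higher and 26.9% with them lower. Both genes were named for passing that comparison, so their separation in it adds no support. Neither passed without any 1 of the 4 arrays compared (adjusted p = 0.185 to 0.225 for P3h1 and 0.146 to 0.2495 for Mia3), without the filter on low genes (0.0914 and 0.0879) or once the span trend was removed (0.0616 and 0.0509). P3h1 also did not pass after centring on the median (0.0530). The prolyl 4-hydroxylase subunit genes P4ha1 and P4ha2 differed by 0.121 (adjusted p = 0.147) and -0.130 (0.133), opposite in sign. Plod1, a lysyl hydroxylase, differed by 0.0957 (adjusted p = 0.226), and Serpinh1, the collagen chaperone HSP47, by -0.117 (0.394). Between the knockouts 0 of 17 passed, with 7 above 0, beside 50% of all genes, and a median of -0.0261. Against wild type 0 of 17 passed in AA-supplemented knockouts.

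Matrix partners of collagen, laminins and proteoglycans among them, had 19 genes tested. In AA-deficient knockouts against wild type 16 were above 0, beside 48.5% of all genes, with a median of 0.0934 and 1 past the threshold (5.26%, beside 4.63%). That gene was Hspg2, perlecan, a basement membrane proteoglycan, at 0.684 and 0.719 in AA-deficient knockouts, 0.586 and 0.637 in AA-supplemented knockouts and 0.373 and 0.437 in wild type (difference 0.296, SE 0.045, 1.98-fold, adjusted p = 0.0174 in limma). Its span is 102 kb. Its wild-type values, on which the fold rests, lay under 0.6, a level that cannot be separated from background here. Hspg2 did not pass without any 1 of the 4 arrays compared (adjusted p = 0.0632 to 0.157, differences 0.264 to 0.328). Agrn, agrin, was 0.178 higher (adjusted p = 0.0562) and the laminin gene Lamb1 0.180 higher (adjusted p = 0.0656), and neither passed. Between the knockouts 17 of 19 were above 0, beside 50% of all genes, with a median of 0.0528 beside 3.14e-05 and 0 past the threshold. AA-supplemented knockouts had 12 of 19 above wild type, beside 49.1%, with a median of 0.0183 beside -0.00167 and 0 past the threshold. The mean of the 22 listed genes with a value was 0.754 and 0.734 in AA-deficient knockouts, 0.666 and 0.738 in AA-supplemented knockouts and 0.672 and 0.647 in wild type. The part of the offset between the AA-supplemented arrays was not tested.

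The other collagen lists held 0 genes past the threshold in limma in any comparison. Procollagen processing and cross-linking had 8 genes tested, with medians of 0.0569 between the knockouts and 0.0151 in AA-deficient knockouts against wild type. Its smallest p values against wild type were those of Bmp1, the procollagen C-proteinase, at 0.0682, Loxl3 at 0.0531 and Loxl4 at 0.0318. Collagen breakdown had 10 tested, with medians of 0.0153 and 0.0174. There Mmp14, a membrane collagenase, differed by -0.143 (adjusted p = 0.124), the gelatinase Mmp2 by 0.103 and Mmp19 by 0.0941. Of 5 collagen receptors tested, Ddr2 differed by 0.124 (adjusted p = 0.150), Itga1 by 0.130 and Ddr1 by -0.0744. Among 13 genes of TGF-beta and profibrotic signalling, Smad3 differed by 0.164 (adjusted p = 0.0642), the inhibitory Smad7 by 0.172 (0.0852) and Tgfbr2 by -0.0880, and the medians were -0.0112 and 0.0160.

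Markers of the cells that make collagen are given beside these values, since in whole liver fewer cells of a type and less RNA per cell cannot be told apart. Of 10 stellate cell markers tested, 0 passed, with medians of 0.0297 between the knockouts, -0.00789 in AA-deficient and -0.0326 in AA-supplemented knockouts against wild type. The mean of the list was 0.595 and 0.590, 0.533 and 0.592, and 0.593 and 0.577 in AA-deficient knockouts, AA-supplemented knockouts and wild type. Reln was 0.181 above wild type in AA-deficient knockouts (adjusted p = 0.0507), Dcn differed by -0.0780 and Des by -0.0702. Of the myofibroblast markers 2 of 6 were tested, Tagln at -0.204 (adjusted p = 0.0629) and Acta2 at 0.0832, while Myh11, Cnn1, Actg2 and Lmod1 lay under the filter, and the list mean was between 0.143 and 0.265 on all arrays. Portal fibroblast and mesothelial markers had 6 tested and 0 past the threshold, with Thy1 at 0.0764, Msln at -0.0393 and Krt19 at -0.0484.

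Sinusoidal endothelial markers had 8 of 12 above 0 in AA-deficient knockouts against wild type, beside 48.5% of all genes, with a median of 0.0755, and 1 passed (8.33%, beside 4.63%). Stab2, a scavenger receptor of these cells, was at 1.09 and 1.11, 1.01 and 0.995, and 0.814 and 0.903 (difference 0.237, SE 0.045, adjusted p = 0.0320 in limma). It did not pass without any 1 of these AA-deficient or wild-type arrays (adjusted p = 0.101 to 0.218), without the filter on low genes (0.0728) or after removal of the trend on gene span (0.0583). The list mean was 1.06 and 1.10 in AA-deficient knockouts, 1.03 and 1.01 in AA-supplemented knockouts and 1.02 and 1.03 in wild type. Between the knockouts 10 of the 12 were above 0, beside 50% of all genes, and 2 below, with a median of 0.0810 and 0 past the threshold. The AA-deficient arrays lay wholly above the AA-supplemented ones for 8 of the 12, beside 19.8%, and wholly below for 0, beside 17.5%. In AA-supplemented knockouts against wild type 4 of the 12 were above 0, beside 49.1%, and 8 below, with a median of -0.0298 and 0 past the threshold. The part of endothelial cells in the Col18a1 difference was not tested. Kupffer cell markers had 8 of 8 above 0 in AA-deficient knockouts, beside 48.5% of all genes, with a median of 0.0477 and 0 past the threshold, and the members of smallest p were Csf1r at 0.136, Adgre1 at 0.0990 and Cd68 at 0.0393. The AA-deficient arrays lay wholly above wild type for 2 of the 8, beside 27.6%. At an unadjusted p under 0.05 in limma there were 0 of 8, beside 20.4%. The mean of the Kupffer list was 0.891 and 0.984 in AA-deficient knockouts, 0.960 and 0.852 in AA-supplemented knockouts and 0.863 and 0.892 in wild type, all overlapping. Of 4 bile duct markers tested 0 passed, with Krt7 at -0.0547, Krt19 at -0.0484 and Sox9 at 0.0244. Hepatocyte markers had 7 of 10 above 0, beside 48.5% of all genes, with a median of 0.0336 and 0 past the threshold. Among them Apob was at 0.199 (adjusted p = 0.102 in limma), Ttr at 0.0602 and Cps1 at 0.0681.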

How the data were processed

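Total RNA of liver was extracted with ISOGEN and biotin-labelled with a GeneChip WT Terminal Labeling Kit, per the labels' protocols. The authors deposited 1 table of log values, read here as log10 from their span, with a column for each of the 6 arrays. The log base and the background correction, summarisation and normalisation behind the table are not given in the sources read for this work. Of 34760 probe sets, 3995 without a value were left out. Probe sets were named by the platform annotation: 21161 had 1 symbol, 1150 several and 8454 none. For the 925 genes with several probe sets the one of highest mean was taken, which left 19550 genes.

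The values were used as deposited. The 14662 genes whose mean reached the 25th percentile entered 1 limma fit of all 6 arrays and 3 groups (limma 3.58.1, R 4.3.3, eBayes with neither trend nor robust). Residual degrees of freedom were 3 and prior ones 4.89. Tests are two-sided, with p-values Benjamini-Hochberg adjusted over all genes tested within a comparison, with a threshold of 0.05. The fit was tested on simulated data. The 3 groups had 2 arrays each, and this number limits the precision.

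The collagen genes, their classes, 6 pathway lists and 7 marker lists were chosen with earlier results of these data known. Of 204 list entries 196 matched a gene with a value. Chains were named with values by array where they passed the threshold, were among the 12 of highest mean, or among the 4 of smallest p in a comparison, 16 in all, and list members where they passed or, in lists with none past it, where they were among the 3 of smallest p. For lists this was taken from AA-deficient knockouts against wild type. Hspg2's companions Agrn and Lamb1, and P4ha1, P4ha2, Plod1 and Serpinh1 were added after their values were seen. Promoter windows came from RefSeq (GRCm38.p6). Gene spans and neighbours came from the RefSeq table of the same assembly.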

Additional observations from a re-analysis of the deposited data

How the results depend on the processing

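The collagen counts, medians and 16 named chains, and the counts over all genes, were recomputed under 17 alternatives, 16 for the F test. Between the knockouts and in AA-supplemented knockouts against wild type, 0 collagen genes passed under all 17. In AA-deficient knockouts against wild type 2 passed with eBayes with a trend, with a trend and robust, and with only the 4 arrays compared, the second being Col14a1, and 0 passed without a filter or after removal of the trend on gene span. Leaving out 1 array gave 0 to 2, with 0 without either AA-deficient array or either wild-type array and 2 without either AA-supplemented array. The moderated F test called 1 gene with the trend, with the trend and robust, and when the filter was set at the 50th percentile. Over the settings the difference of Col18a1 was between 0.159 and 0.196, and in the 807 pairs of a named chain and a setting 0 called differences reversed, 7 lost and 5 gained a call, and 40 differences that had not passed changed sign. The collagen median moved by more than its SD within groups, 0.0553, in few settings. In AA-deficient knockouts against wild type it moved to 0.0624 when the filter at the 50th percentile kept 13 collagen genes. Between the knockouts it moved to 0.0496 without AA-supplemented array 2 and to -0.0662 without array 1. In AA-supplemented knockouts against wild type it moved to 0.0784 without AA-supplemented array 1. Without array 2 it was -0.0379, a smaller move than the SD. Over all genes tested the counts past the threshold moved more: 0 to 177 between the knockouts (30 as reported), 1 to 1312 in AA-deficient (679) and 1 to 116 in AA-supplemented ones (1) against wild type, and 1 to 894 in the F test (200), so the shares of all genes given beside the collagen counts move with the setting. The lists were recomputed under the same alternatives, a step added after seeing the data. The list genes past the threshold against wild type kept their direction in every setting and their call in 9 of 17 for P3h1, 10 for Mia3, 13 for Hspg2 and 10 for Stab2. Of the lists with 0 genes past it in that comparison, TGF-beta signalling reached up to 2 in some settings, and the stellate, myofibroblast and hepatocyte markers up to 1 each. The list median ran from 0.0732 to 0.107 for matrix partners, -0.0373 to -0.0091 for the modification, folding and export list and 0.0458 to 0.114 for endothelial markers.

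Same-numbered arrays deviated together at correlations of -0.369, 0.358 and -0.284, so the replicate numbers do not pair the samples. With the replicate number as a block 0 collagen genes passed against wild type in AA-deficient knockouts (Col18a1 at adjusted p = 0.0916 in limma).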

Other observations

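Col6a5 and Col6a6 had a second probe set each, which was not used in the comparisons. The second set of Col6a5 was at -0.0743 and 0.0406 in AA-deficient knockouts, -0.119 and -0.115 in AA-supplemented knockouts and 0.0534 and -0.0397 in wild type. The second set of Col6a6 was at 0.169 and 0.0888, 0.0983 and 0.131, and 0.135 and 0.0661 in the same order. Both AA-supplemented arrays lay below the other 4 in the Col6a5 set. In both sets the arrays of the groups overlapped between AA-deficient knockouts and wild type.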
